A study of Mus musculus with 36 samples.

Results

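The growth hormone and IGF axis of the liver was followed through 10 genes in the liver RNA of 36 mice. The genes were Igf1, Igfals, Igfbp1, Igfbp2, Igfbp3, Igfbp4, Ghr, Socs2, Cish and Stat5b. They were taken by symbol as members of the axis, with earlier results of these data known. All 10 were found among the 24421 genes of each library, and all 10 passed the filter for low counts in every comparison.

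Growth hormone from the pituitary binds its receptor GHR on hepatocytes, and the kinase JAK2 then activates the transcription factor STAT5B. STAT5B drives the transcription of Igf1, of Igfals and of the feedback inhibitors Socs2 and Cish. The liver secretes most of the circulating IGF-1, which travels bound to IGF binding proteins, and the complex with IGFBP3 and the acid labile subunit encoded by Igfals is the longest lived of these.

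All mice were male C57BL/6J, bought at 7 weeks of age, and all had received CDAHFD for 12 weeks. This fat-rich diet of amino acids without added choline induces steatohepatitis with fibrosis and, by the study's account, poor weight gain. In the HFD experiment, the diet was changed to a high-fat diet for 14 days with 2 subcutaneous injections of either Fc at 4.3 mg/kg (10 mice) or Fc(mML1)B3 at 5 mg/kg (10 mice). In the standard diet experiment, a standard diet was given for 10 days with 3 injections of Fc at 4.3 mg/kg (9 mice) or Fc(mML1)B3 at 5 mg/kg (7 mice). Fc(mML1)B3 is an antibody Fc fragment that carries a macrocyclic peptide binding Met, the receptor of hepatocyte growth factor, and Fc is the same fragment without the peptide. The hour and the feeding state at collection were not given in the sources used here. Diet went together with experiment, number of injections, duration and library numbering, and these cannot be told apart.

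Each mouse gave 1 library, with total counts between 14949035 and 28466853. The hepatocyte markers were abundant, and the 6 that were used (Tf was not analysed here) summed to 78421 to 151645 CPM per mouse (CPM is a gene's count scaled to the TMM-adjusted size of its library), while no marker of any of 6 liver cell types was at 0 over a whole group. Fc mice 7 and 8 of the HFD experiment had the highest S100a8 of their group, a neutrophil gene, at 22.3 and 20.2 CPM against 1.60 to 5.95 CPM in the other 8, and Fc mouse 5 of the standard diet experiment had 25.2 CPM. The library numbers of all HFD Fc mice belonged to one series, and those of the Fc(mML1)B3 mice to another series (mice 1 to 4) and yet another (mice 5 to 10), so that series and protein cannot be told apart there. In the standard diet experiment, Fc mice 6 to 9 shared a series with all 7 Fc(mML1)B3 mice. The clock genes also differed. Arntl, the BMAL1 gene, ranged from 0.621 to 2.12 CPM in HFD Fc mice and from 6.59 to 28.6 CPM in HFD Fc(mML1)B3 mice, and from 2.29 to 6.42 and from 0.920 to 3.38 CPM in the 2 groups of the standard diet experiment.

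Levels between genes were compared as CPM per kb of exon. Igfbp4, the gene of a binding protein that holds IGF-1 away from its receptor, had the highest level, with group means between 531 and 770 CPM per kb. Igfbp2 followed with 270 to 330 CPM per kb, then Ghr with 109 to 144, Igf1 with 77.6 to 108, and Igfals with 40.03 to 55.2 CPM per kb. The order rests on the annotated exon lengths, such as 7817 bases for Igf1 and 4518 for Ghr. In CPM without this division, Igf1 exceeded Ghr in every group mean, with 607 against 494 CPM in HFD Fc mice. Per kb, the order was the same in nearly every liver. Igfbp4 stood above Igfbp2 and Igfbp2 above Ghr in 36 of 36 mice, Ghr above Igf1 in 35, and Igf1 above Igfals in 36. Igfals exceeded Igfbp1 in 32 mice, and Igfbp1 exceeded Igfbp3 in 28, with group means of Igfbp1 from 7.64 to 32.5 CPM per kb. Igfbp3, Cish, Socs2 and Stat5b had group means between 6.70 and 10.7 CPM per kb. Neighbours among these 4 did not differ beyond their spread, as Igfbp3 exceeded Cish in 20, Cish exceeded Socs2 in 16 and Socs2 exceeded Stat5b in 16 of the 36 mice.

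**Figure D1:**
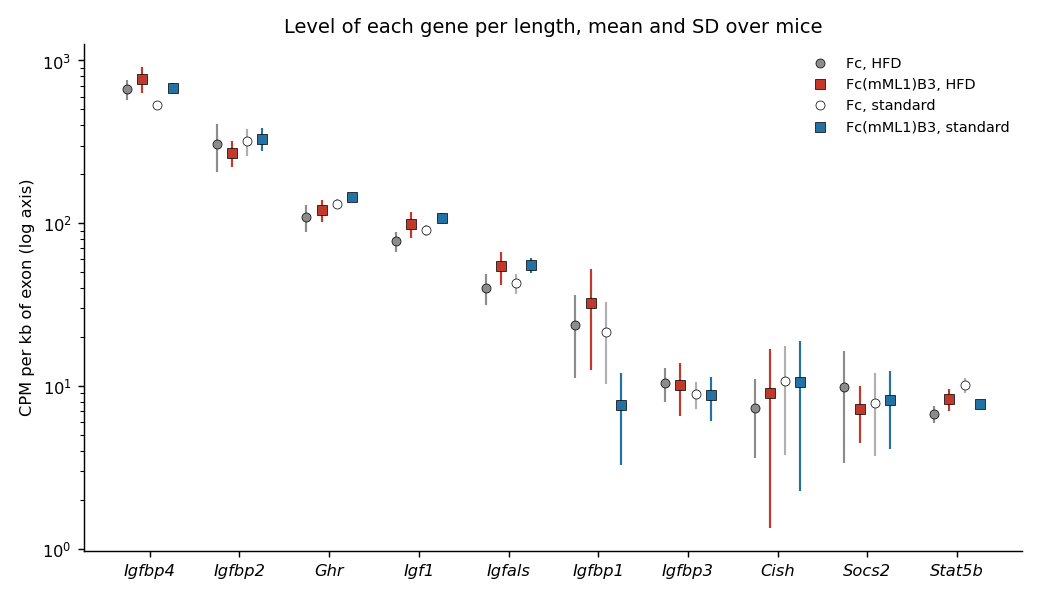
Mean level of each gene in CPM per kb of exon on a log axis, with the SD over mice as a vertical line, for the 4 groups. Igfbp4 and Igfbp2 lie highest and Igfbp3, Cish, Socs2 and Stat5b lie together near 10 CPM per kb, and Igfbp1 spans 7.64 to 32.5 CPM per kb between groups.

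The question of both experiments was what Fc(mML1)B3 changed against Fc. Igf1 and Igfals were higher with Fc(mML1)B3 in both. In whole liver, fewer cells that express a gene and less of its RNA per cell cannot be told apart. Under HFD, 3 of the 10 genes were called at an adjusted p below 0.05 (edgeR's quasi-likelihood test, Benjamini-Hochberg adjustment over all genes tested), beside 14.8% of all 13299 genes. These were Igf1, Igfals and Stat5b, all 3 higher, beside 8.14% of all genes called higher and 6.68% called lower at the same adjusted p. At an unadjusted p below 0.05, 0 of the 10 were lower. The higher genes made up 54.9% of all called genes, and 44.6% with upper quartile scaling, which called the same number of the 10 and 1940 of all 13299 genes. On the standard diet, 5 of 10 were called, beside 16.1% of all 13570 genes, with Igf1, Igfals and Igfbp4 higher (8.56% of all genes) and Igfbp1 and Stat5b lower (7.55%). At limits taken from the study, which gives more than one pair for the standard diet, namely an adjusted p below 0.1 with a fold above 2 under HFD and below 0.05 with a fold above 1.5 on the standard diet, 0 genes of the 10 passed under HFD (edgeR, 1.34% of all genes) and 1 passed on the standard diet (2.36%), Igfbp1. The median log2 fold change of the 10 genes was 0.27 under HFD and 0.05 on the standard diet, and that of all genes was -0.01 in both. No gene of the 10 separated the groups without overlap under HFD (0.91% of all genes did), and 2 did on the standard diet (2.93% of all genes), Igfbp4 and Stat5b. A test of the difference between the 2 effects called 2 of 10 genes, Igfbp1 and Stat5b, beside 9.06% of all 14105 genes (4.66% higher and 4.4% lower on the standard diet relative to HFD).

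**Figure D2:**
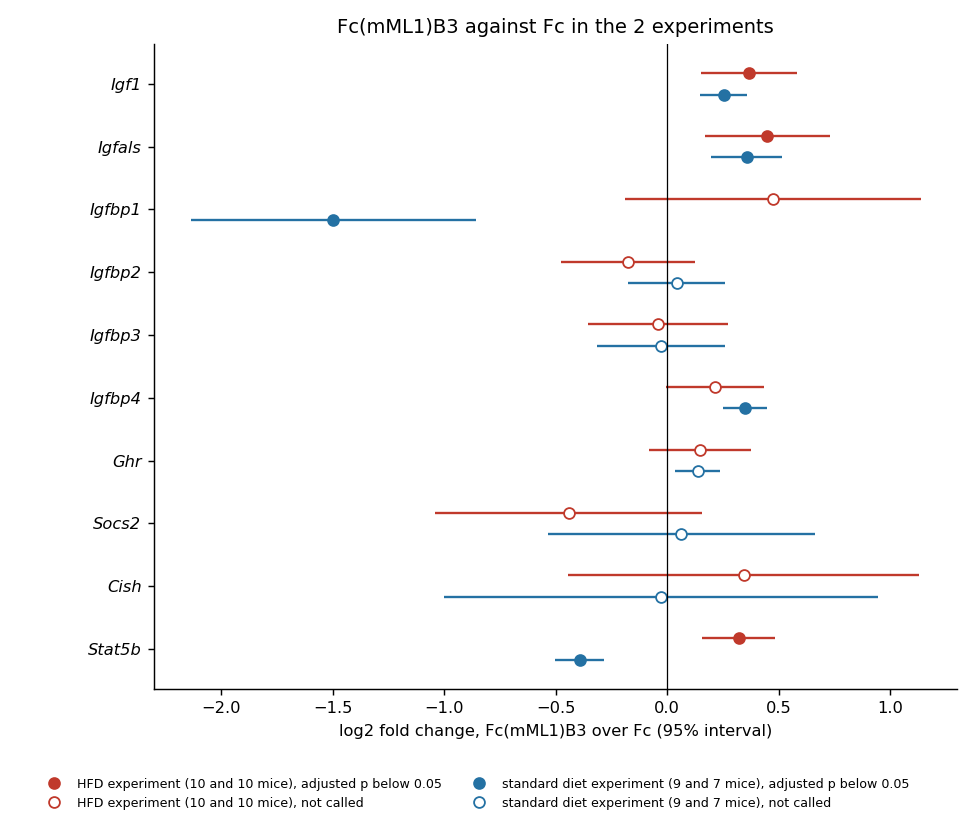
Log2 fold change of each gene, Fc(mML1)B3 over Fc, in the HFD experiment (red) and the standard diet experiment (blue), with lines for the 95% interval and filled points for an adjusted p below 0.05. Igf1 and Igfals lie to the right of 0 in both experiments, and Stat5b lies to the right at 0.32 under HFD and to the left at -0.39 on the standard diet.

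Igf1 encodes the hormone IGF-1, and its exons were counted on chromosome 10 of mm10 between 87859056 and 87937047. Under HFD, it ranged from 486 to 751 CPM with a median of 619 in Fc mice, and from 514 to 942 CPM with a median of 764 in Fc(mML1)B3 mice. The groups overlapped, although 9 of the 10 Fc(mML1)B3 mice were above the Fc median and 5 were above every Fc mouse. The mean rose from 607 ± 87.7 (SD, n = 10) to 776 ± 138.7 CPM (SD, n = 10), for a log2 fold change of 0.37 (standard error, SE, 0.11; adjusted p = 0.0271). Leaving out Fc(mML1)B3 mouse 6 or 10 ended this call, with adjusted p up to 0.0540. By library series, Fc(mML1)B3 mice 1 to 4 gave 0.48 against all Fc mice (SE 0.12, adjusted p = 0.0307) and mice 5 to 10 gave 0.30 (SE 0.13, adjusted p = 0.154). With the standard diet, Igf1 ranged from 654 to 793 CPM with a median of 696 in Fc mice, and from 772 to 939 CPM with a median of 855 in Fc(mML1)B3 mice. Of the 7 Fc(mML1)B3 mice, 6 were above every Fc mouse. The mean rose from 709 ± 53.1 (SD, n = 9) to 848 ± 57.7 CPM (SD, n = 7), for a log2 fold change of 0.25 (SE 0.05, adjusted p = 0.00282). The effects in the 2 experiments differed by -0.10 on the log2 scale (95% interval -0.35 to 0.16, adjusted p = 0.753).

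Igfals, the acid labile subunit gene, lies on chromosome 17 of mm10 from 24878770 to 24882008. Under HFD, it ranged from 55.7 to 112 CPM with a median of 86.9 in Fc mice, and from 64.0 to 153 CPM with a median of 112 in Fc(mML1)B3 mice. Of the Fc(mML1)B3 mice, 5 were above every Fc mouse and 2 were below the Fc median. The mean rose from 84.5 ± 17.9 (SD, n = 10) to 115 ± 26.8 CPM (SD, n = 10), for a log2 fold change of 0.45 (SE 0.14, adjusted p = 0.0361). Single mice decided this call. It was lost when any one of Fc mice 1, 7, 8, 9 and 10 or Fc(mML1)B3 mice 2, 6, 7 and 10 was left out, with log2 fold changes of 0.40 to 0.52 and adjusted p up to 0.0746 over all 20 such fits. Without Fc mice 7 and 8 together, it was 0.39 (SE 0.15, adjusted p = 0.0903). It was also lost in both series subsets, at 0.50 with Fc(mML1)B3 mice 1 to 4 only (SE 0.15, adjusted p = 0.0603) and 0.43 with mice 5 to 10 only (SE 0.18, adjusted p = 0.123). In standard diet mice, Igfals ranged from 74.5 to 113 CPM with a median of 87.8 in Fc mice and from 102 to 136 CPM with a median of 117 in Fc(mML1)B3 mice. All 7 Fc(mML1)B3 mice were above the Fc median and 4 were above every Fc mouse. The mean rose from 90.8 ± 12.7 (SD, n = 9) to 117 ± 12.4 CPM (SD, n = 7), for a log2 fold change of 0.36 (SE 0.08, adjusted p = 0.00538). Against Fc mice 6 to 9 only, which share the library series, it was 0.29 (SE 0.10, adjusted p = 0.0898).

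STAT5 binds palindromes of the form TTCNNNGAA. In the 250 bases before each RefSeq start of these genes (GRCm38.p6, 14 windows for 9 of the 10 genes, Socs2 unmatched), this motif occurred in the windows of Igfals alone, once before each of 2 of its 3 starts. It occurred in 7.02% of all 32851 promoter windows, searched on both strands. The 2 stretches are shown because Igfals moved the same way in both experiments. Each has the motif in capitals with 10 bases on either side, read on the plus strand at chr17:24877598-24877626 and chr17:24878163-24878191. The capitals begin 236 bases before the first start and 58 bases before the second. Both of these starts lie before the counted exons of Igfals, which begin at 24878770. The third window, at chr17:24878497-24878746, lies nearest to those exons and held no such motif.
Igfals, first start: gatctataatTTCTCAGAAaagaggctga
Igfals, second start: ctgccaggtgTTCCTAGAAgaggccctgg
No binding was measured here, and a match in letters is a description only.

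Igfbp3, the main binding partner of IGF-1 in plasma, lies on chromosome 11 from 7206091 to 7213923 on the minus strand. Its medians in the 4 groups were 25.3 and 21.9 CPM in HFD Fc and Fc(mML1)B3 mice, and 20.3 and 18.8 CPM in the corresponding standard diet mice. The range was widest in HFD Fc(mML1)B3 mice, from 18.7 to 48.6 CPM, where mouse 5 was far above the others. The log2 fold change was -0.04 under HFD (95% interval -0.35 to 0.27, adjusted p = 0.889) and -0.03 on the standard diet (95% interval -0.32 to 0.26, adjusted p = 0.927). Igfbp3 did not pass the test in either experiment, while its partners Igf1 and Igfals did in both. The changes of these genes were not tested against each other.

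Ghr encodes the growth hormone receptor, on chromosome 15 from 3317755 to 3583352 on the minus strand. Under HFD, Fc mice ranged from 296 to 596 CPM with a median of 515, and Fc(mML1)B3 mice from 403 to 633 CPM with a median of 565. The lowest Fc values, 296 and 385 CPM, were those of mice 7 and 8, the mice with high S100a8. The log2 fold change was 0.15 (SE 0.12, adjusted p = 0.410) with all mice and 0.04 (SE 0.09, adjusted p = 0.830) without these 2. In the standard diet experiment, Fc mice ranged from 514 to 636 CPM with a median of 601, and Fc(mML1)B3 mice from 610 to 709 CPM with a median of 638. All 7 Fc(mML1)B3 mice were above the Fc median. The log2 fold change of 0.14 (SE 0.05) missed the threshold at an adjusted p of 0.0765, passed it in DESeq2 at 0.0464, and gave an unadjusted p of 0.0108 in a 2-sided exact permutation test.

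Stat5b moved in opposite directions. Its exons were counted on chromosome 11 between 100780731 and 100850585 on the minus strand. Under HFD, it ranged from 30.8 to 44.0 CPM with a median of 36.2 in Fc mice, and from 33.1 to 57.8 CPM with a median of 45.5 in Fc(mML1)B3 mice. The groups overlapped, and 6 of the 10 Fc(mML1)B3 mice were above every Fc mouse. The mean rose from 36.5 ± 4.41 (SD, n = 10) to 45.2 ± 6.97 CPM (SD, n = 10), for a log2 fold change of 0.32 (SE 0.08, adjusted p = 0.0120). On the standard diet, it ranged from 48.0 to 66.0 CPM with a median of 53.0 in Fc mice, and from 40.5 to 43.6 CPM with a median of 42.2 in Fc(mML1)B3 mice. Here every Fc(mML1)B3 mouse was below every Fc mouse. The mean fell from 55.0 ± 5.49 (SD, n = 9) to 42.0 ± 1.35 CPM (SD, n = 7), for a log2 fold change of -0.39 (SE 0.06, adjusted p = 6.9e-05), and the exact permutation test gave p = 8.7e-05, the smallest that 9 against 7 mice allow. The effects differed by -0.70 (SE 0.11, adjusted p = 4.0e-05), and all 36 fits that left out 1 mouse called this difference.

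The mean Stat5b levels of the Fc(mML1)B3 groups, 45.2 and 42.0 CPM, lay between those of the Fc groups, 36.5 and 55.0 CPM. The log2 difference between the Fc(mML1)B3 groups, standard diet over HFD, was -0.10 (95% interval -0.26 to 0.06, adjusted p = 0.326) and was called with upper quartile scaling (-0.19, SE 0.08, adjusted p = 0.0475), and that between the Fc groups was 0.59 (95% interval 0.44 to 0.74, adjusted p = 6.7e-08). Within the HFD experiment, Fc(mML1)B3 mice 1 to 4 had 41.1 ± 7.13 CPM (SD, n = 4) and mice 5 to 10 had 47.8 ± 5.97 CPM (SD, n = 6), and against all Fc mice the second set passed the test (log2 fold change 0.40, adjusted p = 0.0040) and the first did not (0.21, adjusted p = 0.225). Clock genes were set beside Stat5b. Dbp, a clock output gene, had 100.2 ± 20.5 CPM in HFD Fc mice and 9.88 ± 7.88 CPM in HFD Fc(mML1)B3 mice (SD, n = 10 each), without overlap between the groups. With the standard diet it had 68.7 ± 16.9 (SD, n = 9) and 75.9 ± 22.7 CPM (SD, n = 7). With the log2 difference of Arntl and Dbp as a covariate, the log2 fold change of Stat5b became -0.03 under HFD (SE 0.25, adjusted p = 0.982) and stayed at -0.35 on the standard diet (SE 0.07, adjusted p = 0.00165). Neither gene of the covariate overlapped between the HFD groups, and the part of the clock in the result was not tested. With the same covariate, Igf1 under HFD was 0.42 (SE 0.34, adjusted p = 0.712) and Igfals 0.44 (SE 0.44, adjusted p = 0.769), and neither was called. In that fit, 0 of all 13299 genes were called under HFD (edgeR), so these lost calls are not particular to the 10 genes.

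Stat5a, the close relative of Stat5b, had lower levels, with group means between 12.5 and 17.8 CPM. It rose under HFD from 13.2 ± 1.963 to 17.8 ± 2.53 CPM (SD, n = 10 each; log2 fold change 0.44, SE 0.09, adjusted p = 0.0025). In standard diet mice, the log2 fold change was -0.16 (SE 0.08, adjusted p = 0.179). The difference between the 2 effects was -0.58 (SE 0.13, adjusted p = 0.00203).

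**Figure D3:**
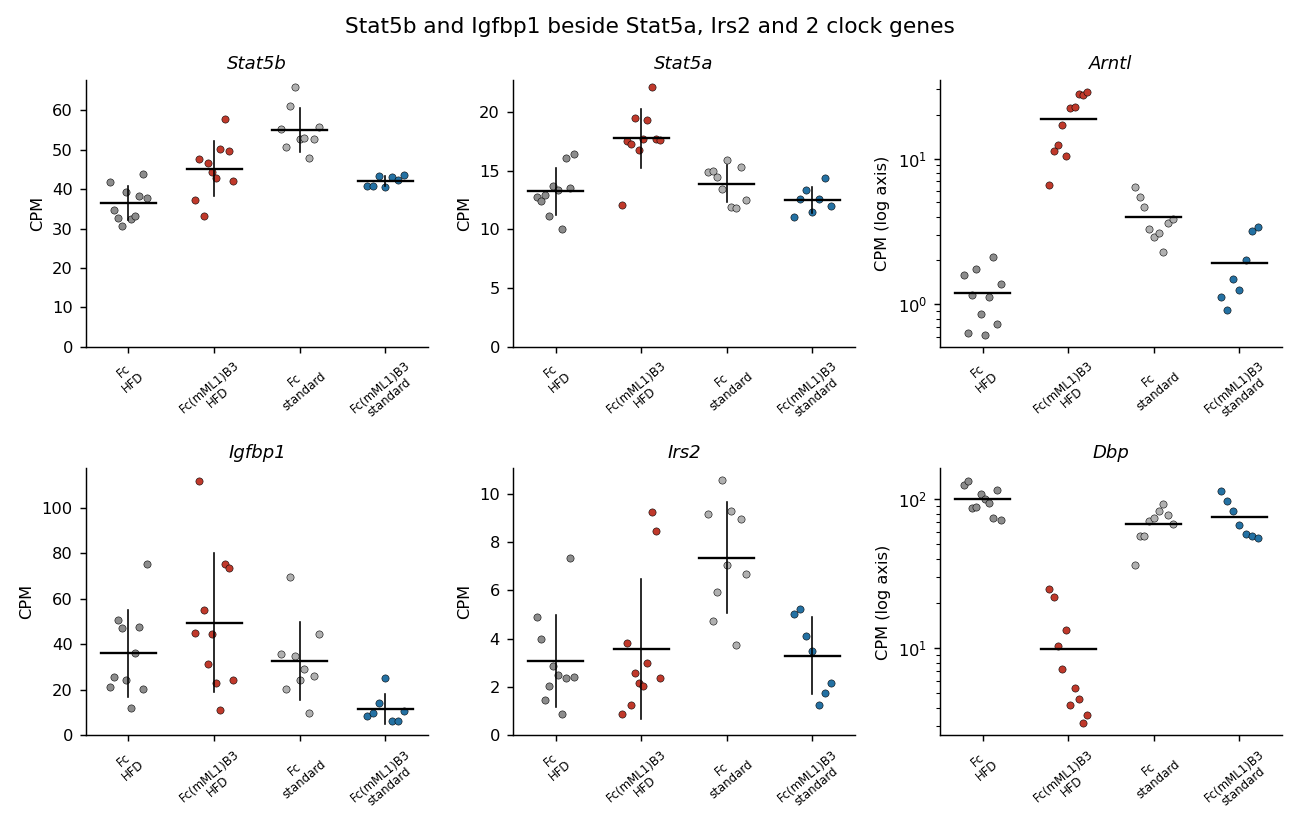
CPM of Stat5b, Stat5a, Igfbp1 and Irs2 in every mouse of the 4 groups, beside the clock genes Arntl and Dbp on log axes, with bars for the mean and, on the linear axes, lines for the SD. Stat5b is higher in red than in dark grey points under HFD, while all blue points lie below all light grey points on the standard diet, and the HFD groups do not overlap in Arntl or in Dbp.

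Socs2 and Cish encode the feedback inhibitors that growth hormone induces rapidly, and neither passed the test. Socs2 ranged from 8.44 to 58.9 CPM with a median of 22.5 in HFD Fc mice, and from 10.6 to 32.7 CPM with a median of 17.5 in HFD Fc(mML1)B3 mice. In the standard diet experiment, the ranges were 9.41 to 46.1 CPM with a median of 18.7 in Fc mice and 10.8 to 40.4 CPM with a median of 18.4 in Fc(mML1)B3 mice. The groups overlapped almost fully. Cish spread even more widely, from 2.699 CPM (51 reads) to 53.3 CPM (1423 reads) over the 36 mice, and that range lay within the standard diet experiment. Its group medians were 15.6 and 12.8 CPM under HFD and 26.4 and 16.5 CPM on the standard diet, Fc before Fc(mML1)B3. The coefficient of variation within groups was 38.0% to 66.1% for Socs2 and 51.0% to 85.3% for Cish, against 6.81% to 17.9% for Igf1. With this spread, the 95% intervals of the log2 fold change ran from -1.04 to 0.16 for Socs2 and from -0.45 to 1.13 for Cish under HFD, and from -0.53 to 0.66 and from -1.002 to 0.95 on the standard diet. The width of these intervals limits what could be seen in either gene.

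Igfbp1 had the largest fold change of the 10 between Fc(mML1)B3 and Fc, on the standard diet. It encodes a binding protein that hepatocytes secrete in fasting and whose transcription insulin represses. Under HFD, it ranged from 11.8 to 75.3 CPM with a median of 30.98 in Fc mice and from 11.3 to 112 CPM with a median of 44.8 in Fc(mML1)B3 mice. The groups overlapped throughout, and the log2 fold change was 0.47 (SE 0.34, adjusted p = 0.360). On the standard diet, it ranged from 10.0 to 69.5 CPM with a median of 29.3 in Fc mice and from 6.44 to 25.3 CPM with a median of 9.77 in Fc(mML1)B3 mice. All 7 Fc(mML1)B3 mice were below the Fc median and 4 were below every Fc mouse. The mean fell from 32.7 ± 17.0 (SD, n = 9) to 11.6 ± 6.62 CPM (SD, n = 7), for a log2 fold change of -1.50 (SE 0.33, adjusted p = 0.00361). The effects differed by -1.957 (SE 0.51, adjusted p = 0.0106), a call that all 36 fits without 1 mouse kept. Against Fc mice 6 to 9 only, the standard diet effect was -1.25 (SE 0.37, adjusted p = 0.0549), and with the Arntl and Dbp covariate it was -1.30 (SE 0.43, adjusted p = 0.0565).

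The 250 bases before the Igfbp1 start are shown because the gene had this change and because they hold the core of the element through which insulin acts on it, CAAAACA. They lie on the plus strand at chr11:7197537-7197786 (RefSeq, GRCm38.p6, the assembly of mm10), just before the gene, which was counted from 7197787 to 7202546. The capitals mark the core, 108 bases before the start, and 5.56% of all 32851 promoter windows hold it on either strand.
Igfbp1: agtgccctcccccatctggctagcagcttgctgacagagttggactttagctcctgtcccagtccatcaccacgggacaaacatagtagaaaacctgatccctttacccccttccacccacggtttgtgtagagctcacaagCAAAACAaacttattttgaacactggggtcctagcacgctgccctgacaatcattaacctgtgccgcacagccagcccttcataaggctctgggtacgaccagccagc
Of the other motifs searched on both strands, the E-box CACGTG occurred once, before a start of Igfbp2 (6.02% of all windows), and the D-box TTATGTAA in none of the 14 windows (0.819%). No window held more than 1 of these motifs. Igfbp1 and Igfbp3 are neighbours, with 3544 bases between their 3′ ends. Igfbp1 passed the test on the standard diet and Igfbp3 did not, under HFD neither did, and the changes of the 2 genes were not tested against each other.

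Irs2, which encodes an adaptor of the insulin receptor and is also repressed by insulin, had 7.34 ± 2.29 CPM (SD, n = 9) in standard diet Fc mice and 3.29 ± 1.59 CPM (SD, n = 7) in standard diet Fc(mML1)B3 mice, for a log2 fold change of -1.16 (SE 0.26, adjusted p = 0.00505). Under HFD, its means were 3.08 ± 1.89 and 3.58 ± 2.90 CPM (SD, n = 10 each). Irs2 was one of 9 genes of fasting and insulin response that are reported here, and 1 further gene of that list is left out, so that the counts are not those of the whole list. Of these 9, 1 was higher and 0 lower under HFD (edgeR, 1 lower at an unadjusted p below 0.05; 8.14% of all genes were called higher). The higher one was Pdk4 (log2 fold change 1.08, adjusted p = 0.0137), a kinase gene that restrains glucose oxidation. With standard diet feeding, 2 were higher and 1 lower (8.56% and 7.55% of all genes). The higher ones were Srebf1 (0.43, adjusted p = 0.00251), a regulator of lipid synthesis, and Cpt1a (0.26, adjusted p = 0.00582), which serves fatty acid oxidation, and the lower one was Irs2.

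Igfbp4 rose on the standard diet. It lies on chromosome 11 from 99041260 to 99052643. Its range was 989 to 1172 CPM with a median of 1108 in Fc mice and 1284 to 1578 CPM with a median of 1403 in Fc(mML1)B3 mice. Every Fc(mML1)B3 mouse was above every Fc mouse. The mean rose from 1097 ± 63.9 (SD, n = 9) to 1400.3 ± 96.6 CPM (SD, n = 7), for a log2 fold change of 0.35 (SE 0.05, adjusted p = 8.9e-05). Against Fc mice 6 to 9 only, the change was also 0.35 (SE 0.07, adjusted p = 0.00535). Under HFD, it ranged from 1076 to 1657 CPM with a median of 1455 in Fc mice and from 1197 to 2139 CPM with a median of 1615 in Fc(mML1)B3 mice. The log2 fold change was 0.22 (SE 0.11, adjusted p = 0.199). Within that group, Fc(mML1)B3 mice 1 to 4 had 1858 ± 190.3 CPM (SD, n = 4) and mice 5 to 10 had 1414 ± 193 CPM (SD, n = 6). Against all Fc mice, the first set gave 0.46 (adjusted p = 0.0487) and the second 0.04 (adjusted p = 0.871).

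Igfbp2, on chromosome 1 from 72824480 to 72852471, encodes a binding protein abundant in fetal and in fasted liver. It ranged from 243 to 639 CPM with a median of 372 in HFD Fc mice, from 269 to 478 CPM with a median of 361 in HFD Fc(mML1)B3 mice, from 311 to 557 CPM with a median of 398 in standard diet Fc mice and from 369 to 563 CPM with a median of 434 in standard diet Fc(mML1)B3 mice. The highest values, 639 and 634 CPM, were again those of HFD Fc mice 7 and 8. The log2 fold change was -0.18 under HFD (SE 0.15, adjusted p = 0.472) and 0.04 (SE 0.12, adjusted p = 0.854) without those 2 mice. With the standard diet it was 0.04 (SE 0.11, adjusted p = 0.839).

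**Figure D4:**
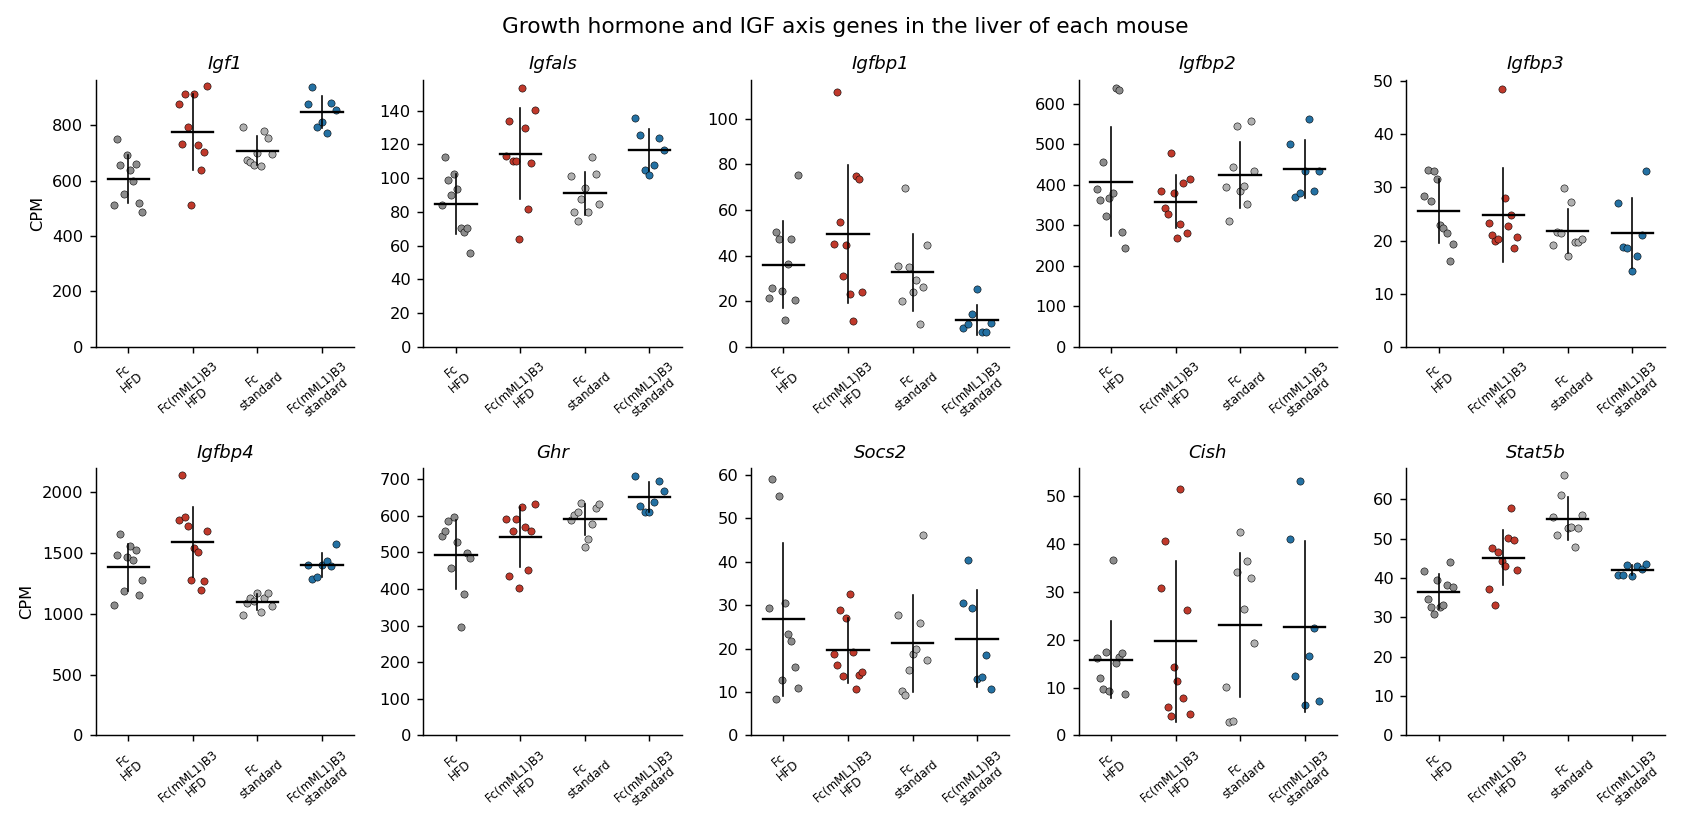
CPM of the 10 genes in every mouse of the 4 groups, each panel on its own axis from 0, with a bar for the mean and a line for the SD. The means of Igf1 and Igfals are higher with Fc(mML1)B3 in both experiments, the mean of Igfbp1 is lowest in the 7 standard diet Fc(mML1)B3 mice, and the groups overlap in Socs2 and in Cish.

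The Fc groups of the 2 experiments were also compared, although diet cannot be told apart from experiment. Of the 10 genes, 4 were called, beside 47.9% of all 14105 genes (6759). With upper quartile scaling, 2 (not Igf1 or Ghr) were called, beside 7318 of all 14105 genes. That scaling lowered the share of higher genes among all called from 48.6% to 34.5%. Igf1, Ghr and Stat5b were higher in standard diet than in HFD Fc mice, and Igfbp4 was lower. Stat5b alone did not overlap between the Fc groups, as did 9.42% of all genes. Igf1 had 709 against 607 CPM (log2 difference 0.22, SE 0.09, adjusted p = 0.0356), Ghr had 591 against 494 CPM (0.26, SE 0.09, adjusted p = 0.0229), and Igfbp4 had 1097 against 1383 CPM (-0.33, SE 0.09, adjusted p = 0.0020). Without HFD Fc mice 7 and 8, the difference in Ghr was 0.16 (adjusted p = 0.0983), and the call was also lost without mouse 8 alone. The call for Igf1 was lost in 8 of 36 fits that left out 1 mouse (Fc mice 1, 4, 9 and 10 under HFD and 1, 7, 8 and 9 on the standard diet), with adjusted p up to 0.0843. Between the Fc(mML1)B3 groups, 2 of 10 genes were called, beside 38.5% of all genes (20.7% higher and 17.9% lower), and 0 did not overlap, beside 9.9%. With upper quartile scaling 3 were called, beside 6007 of all 14105 genes, where Ghr was lost and Igfbp4 and Stat5b were gained, both lower. Igfbp1 had 11.6 against 49.5 CPM (log2 difference -2.10, SE 0.40, adjusted p = 6.3e-05), with 5 of 7 standard diet mice below every HFD mouse. Ghr had 651 against 542 CPM (0.26, SE 0.10, adjusted p = 0.0348), a call lost in 11 of 36 such fits. These comparisons share their groups with those of Fc(mML1)B3 against Fc.

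Igf1 and Igfals varied together across mice of the same group, a call that was lost in the HFD mice without TMM scaling. Pearson's r of their log2 CPM, centred on the group means, was 0.77 over the 20 HFD mice (Spearman's rho 0.68) and 0.84 over the 16 standard diet mice (rho 0.78). Permutation within groups gave p = 0.00024 and 0.00012, and the adjusted p was 0.0108 for both over 90 pairs, 45 in each experiment. Without the 2 mice farthest from the median of Igf1, r was 0.58 and 0.87, and centred on library series it was 0.77 and 0.84. Igf1 and Igfbp4 varied together in the HFD mice (r = 0.68, rho 0.67, permutation p = 0.0013, adjusted p = 0.0390, r = 0.66 without the 2 farthest mice). In the standard diet mice their r was -0.11. A rank test also called Igfals with Ghr in the HFD mice (rho 0.74, adjusted p = 0.0414, where Pearson's r of 0.62 had an adjusted p of 0.0727). No negative pair was called. The lowest r was -0.64, between Igfals and Igfbp1 in the standard diet mice (permutation p = 0.0106, adjusted p = 0.137), and it became -0.35 without the 2 farthest mice. Of the 90 pairs, 14 had an unadjusted p below 0.05 and 3 passed the adjustment. With library totals in place of TMM, 1 pair passed, Igf1 with Igfals in the standard diet mice (r = 0.82, permutation p = 0.00025, adjusted p = 0.0225). In the HFD mice, r then was 0.59 for Igf1 with Igfals (permutation p = 0.00892, adjusted p = 0.126) and 0.39 for Igf1 with Igfbp4 (permutation p = 0.0985, adjusted p = 0.467). The latter pair also lost its call on log2(CPM + 4), with an adjusted p of 0.0561. The values of a pair share the depth and RNA quality of their library.

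**Figure D5:**
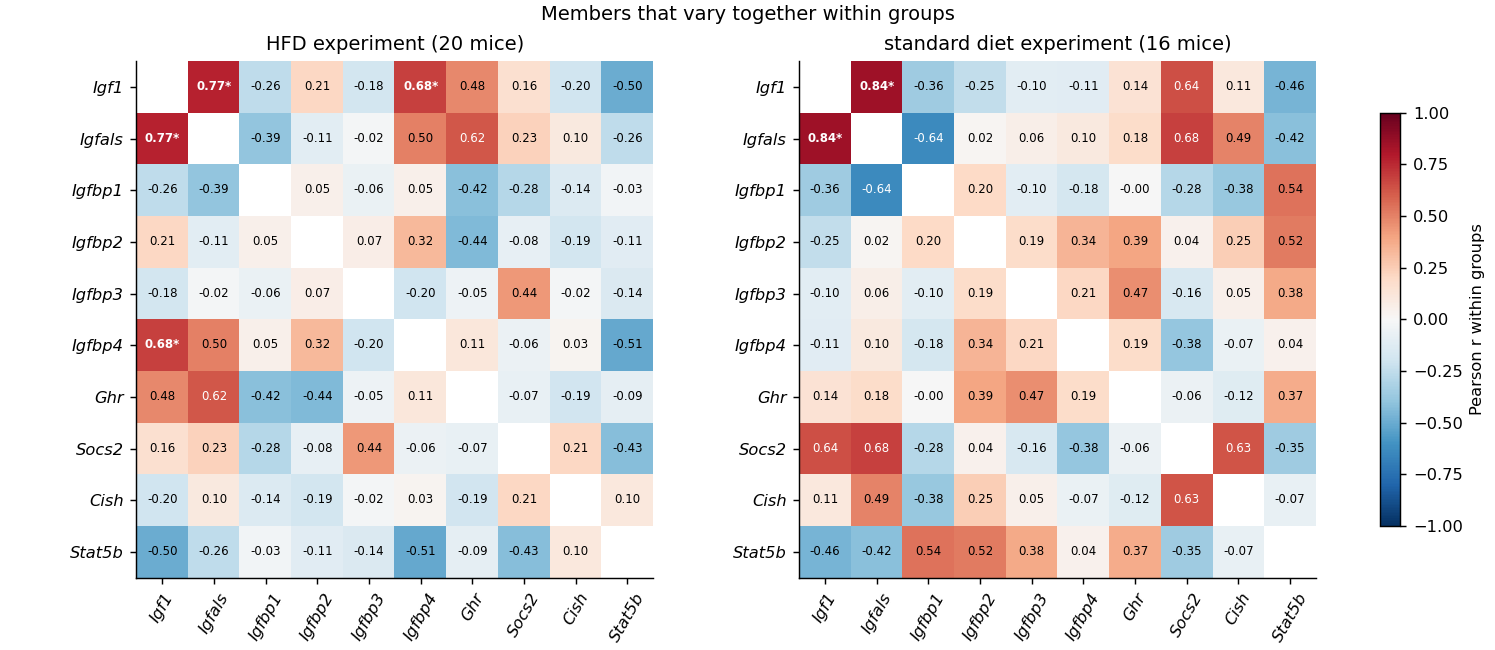
Pearson r between the 10 genes over mice, after centring log2 CPM on the group means, in the HFD experiment (20 mice, left) and the standard diet experiment (16 mice, right), with an asterisk for an adjusted p below 0.05. Igf1 with Igfals is marked in both panels, at 0.77 and 0.84, and Igf1 with Igfbp4 in the HFD panel only, at 0.68.

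Over all 36 libraries and 14095 other genes, the group-centred log2 CPM most like that of Igf1 belonged to Glyat (r = 0.78), Hrsp12 (r = 0.76) and Sepp1 (r = 0.75). For Igfbp1, these were Ip6k2 (r = 0.74), Frmd4b (r = 0.67) and Irf2bp2 (r = 0.66). These are the highest of many correlations and are given as a description.

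The rest of the pathway was described by lists of genes. Of 12 genes of growth hormone signalling (Jak2, Stat5a, Socs3, Ptpn6 and others), 1 was higher and 0 lower under HFD (8.14% and 6.68% of all genes), the higher one being Stat5a. In standard diet mice, 0 were higher and 2 lower (8.56% and 7.55% of all genes), Ptpn6 (log2 fold change -0.23, SE 0.06, adjusted p = 0.00714), which encodes the phosphatase SHP-1, and Sirpa (-0.36, SE 0.11, adjusted p = 0.0304), the gene of an inhibitory receptor of myeloid cells. At an unadjusted p below 0.05 (edgeR), 4 were lower under HFD and 0 were higher on the standard diet. The medians of the list were -0.05 and -0.15, against -0.01 for all genes. Of 14 further genes of the IGF system, 10 passed the filter in each experiment. Irs1, which encodes an adaptor below the IGF-1 and insulin receptors, was the only one called higher under HFD (0.47, SE 0.12, adjusted p = 0.0107), 1 of 10 beside 8.14% of all genes. Irs2 and Irs1 were lower on the standard diet, 2 of 10 beside 7.55% of all genes (Irs1 -0.30, SE 0.09, adjusted p = 0.0209), and the effects on Irs1 differed by -0.75 (SE 0.16, adjusted p = 0.00145).

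The pulsatile growth hormone of males, through STAT5B, sets the sex-biased expression of many liver genes. Of 14 male-biased genes, 3 were higher and 0 lower with Fc(mML1)B3 under HFD (8.14% and 6.68% of all genes), and the median log2 fold change of the 14 was 0.58. At an unadjusted p below 0.05, 0 were lower. The higher ones were Elovl3 (3.76, SE 0.46, adjusted p = 8.2e-06), Selenbp2 (1.38, SE 0.29, adjusted p = 0.0025) and Cyp7b1 (0.92, SE 0.21, adjusted p = 0.00426), which encode a fatty acid elongase, a selenium binding protein and an oxysterol hydroxylase. Of the 15 female-biased genes, 8 passed the filter, 0 were higher (also at an unadjusted p below 0.05) and 2 were lower, beside 6.68% of all genes, Acot3 (-1.26, SE 0.23, adjusted p = 0.000695) and Cyp2a4 (-2.07, SE 0.54, adjusted p = 0.0120). The median of the 8 was -0.61. In the standard diet experiment, 3 male-biased genes were higher and 1 was lower (8.56% and 7.55% of all genes), with a median of 0.21. Elovl3 was the lower one (-1.51, SE 0.18, adjusted p = 1.0e-05). The higher ones were Nudt7 (0.45, SE 0.10, adjusted p = 0.0030), Cyp2d9 (0.33, SE 0.09, adjusted p = 0.0141) and Mup3 (0.25, SE 0.08, adjusted p = 0.0310), of which the last 2 belong to gene families that share reads and are uncertain. Sharing of reads was not checked for the other named genes of these lists, among them Selenbp2 and Cyp2a4 under HFD. Of the female-biased genes, 9 passed the filter and 2 were higher, beside 8.56% of all genes, Acot3 (2.28, SE 0.30, adjusted p = 3.6e-05) and Cyp17a1 (0.66, SE 0.22, adjusted p = 0.0475). The median of the 9 was 0.39, and at an unadjusted p below 0.05, 4 were higher and 0 lower. In the test of the difference between the 2 effects, 3 of 12 female-biased genes were called higher and 0 lower (4.66% and 4.4% of all genes). Of the 14 male-biased genes, 0 were called higher and 1 lower in that test. Elovl3 also follows the liver clock, and the part of the clock in its values, or in those of the other sex-biased genes such as Cyp2a4, was not tested. In Fc mice, standard diet over HFD, 11 of 14 male-biased genes were higher and 0 lower (23.3% of all genes were called higher), with a median of 0.91, and 7 of the 12 tested female-biased genes were lower and 0 higher (24.6% of all genes were called lower), with a median of -0.9997.

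The markers of liver cell types were read beside the 14.8% of all genes called under HFD and the 16.1% called on the standard diet. Of 7 endothelial and 6 Kupffer cell markers, 0 were called in either experiment by edgeR, while at an unadjusted p below 0.05, 2 endothelial markers were higher and 3 Kupffer cell markers were lower under HFD, and 0 of either moved on the standard diet. Of 6 stellate and 5 cholangiocyte markers, 0 were called under HFD, also at an unadjusted p below 0.05, and 1 of each was called lower on the standard diet, where 5 of 6 stellate markers (median log2 fold change -0.15) and 5 of 5 cholangiocyte markers (median -0.50) had a negative log2 fold change, and 2 of each were lower at an unadjusted p below 0.05. The part of these cells in the standard diet results was not tested. Of 6 leukocyte markers, S100a8 was called lower under HFD (log2 fold change -1.46, SE 0.40, adjusted p = 0.0166), while all 6 had a negative log2 fold change with a median of -0.49, and 4 were lower at an unadjusted p below 0.05. Without Fc mice 7 and 8, S100a8 was -0.52 (SE 0.22, adjusted p = 0.125), the median was -0.33, and 0 of the 6 were called (edgeR, 2 lower at an unadjusted p below 0.05). None of the 6 was called on the standard diet (median -0.08, 1 lower at an unadjusted p below 0.05). Of the 6 hepatocyte markers, 1 was called higher under HFD, where 5 had a positive log2 fold change (median 0.18). On the standard diet 2 were called higher, and 4 had a positive log2 fold change (median 0.03). The part of hepatocytes in the results was not tested. The summed leukocyte markers ranged from 49.8 to 146 CPM in HFD Fc mice and from 48.5 to 102 CPM in HFD Fc(mML1)B3 mice, and their part in the results was not tested.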

How the data were processed

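Liver RNA of 36 mice was sequenced, with 1 library per mouse. The deposited counts were made by the authors, who trimmed reads with fastp, removed ribosomal reads with Bowtie2 2.4.5, aligned with STAR 2.7.10a to mm10 and counted exon reads per gene with featureCounts of Subread 2.0.3. Counting ignored strand, counted each read of a pair, and left out reads that map to several places. Total counts were 14949035 to 28466853 per library (median 23558194.5), and the number of reads per listed gene and library was 51 to 49085. No pair of libraries of a group agreed within sampling noise. Groups came from the sample titles, and library series from the numbers in the file names.

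Counts were tested with edgeR 4.0.16 (quasi-likelihood test, TMM, filterByExpr, Benjamini-Hochberg adjustment over all genes) in R 4.3.3, within each experiment for Fc(mML1)B3 against Fc, and over all 36 libraries for the difference between experiments and for diet. The SE is the log2 fold change divided by the root of F, and intervals are at 95%. Adjusted p-values are those of edgeR. Permutation p-values, printed only where named, come from 2-sided tests of CPM, with 100000 resamples under HFD and exact otherwise. Pairs of genes were correlated on log2(CPM + 0.5), and 100000 permutations were made within groups. The tests were checked on simulated data. DESeq2 1.42.0, limma 3.58.1 (voom), other scalings and filters, a replicate block, a clock covariate, subsets of library series and leaving out each mouse were alternatives. Leaving out Fc mice 7 and 8 under HFD was chosen after seeing the data. Tables and figures were made with python 3.11.15, numpy 2.4.6, pandas 2.3.3 and matplotlib 3.10.9.

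All 10 genes are named, with up to 3 called genes of each other list per direction by p, and the 3 genes most like Igf1 and Igfbp1. Stat5a, Irs1, Irs2, Arntl, Dbp and S100a8 carry values that bear on a listed gene. The genes and lists were chosen with earlier results of these data known. A result on 1 further gene is not reported here.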

Additional observations from a re-analysis of the deposited data

Results flagged for a closer look

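Of 40 sets of mice checked (10 genes in 4 groups), 4 had 1 mouse far from the rest of its group, where chance gives about 5.0%. Igfbp1 was 25.3 CPM in Fc(mML1)B3 mouse 4 on the standard diet, against 6.44 to 14.4 CPM in the others. Igfbp3 was 48.6 CPM in Fc(mML1)B3 mouse 5 under HFD, against 18.7 to 27.998 CPM. Socs2 was 46.1 CPM in Fc mouse 8 on the standard diet, against 9.41 to 27.8 CPM. Cish was 36.7 CPM in Fc mouse 6 under HFD, against 8.60 to 17.5 CPM.

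For 2 genes, the HFD and standard diet effects differed by the test of the difference itself (edgeR). The log2 effect on the standard diet minus that under HFD was -1.957 for Igfbp1 (adjusted p = 0.0106) and -0.70 for Stat5b (adjusted p = 4.0e-05).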

How the results depend on the processing

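The 10 genes gave 3 calls under HFD. These became 1 with the mouse number as a replicate block (Stat5b 0.31, adjusted p = 0.0269; 1294 of all 13299 genes called), 0 with the clock covariate (edgeR, 1 at an unadjusted p below 0.05; 0 of all 13299 genes called), 2 with Fc(mML1)B3 mice 1 to 4 only (Igfals and Stat5b lost, Igfbp4 gained; 705 of 13824 genes), 1 with mice 5 to 10 only (1703 of 13538 genes) and 0 at the study's limits (edgeR, 3 at an unadjusted p below 0.05), and ranged from 1 to 3 when each mouse was left out. On the standard diet the 5 calls became 3 with Fc mice 6 to 9 only (942 of 13735 genes), 4 with the clock covariate (Igfbp1 lost; 1571 of 13570 genes), 6 with DESeq2 (Ghr gained) and 1 at the study's limits, and stayed at 5 without any one mouse and with the block. The 2 calls on the difference between experiments stayed at 2 in every alternative fitted to that difference. The clock covariate and the subsets of library series were fitted only within each experiment, so the difference was not tested under them. The 4 calls between Fc groups became 2 with upper quartile scaling (7318 of all 14105 genes called) and 3 with the block (Igf1 lost, 0.23, adjusted p = 0.0532; 6424 of 14105 genes). They were 3 to 4 without 1 mouse. At an adjusted p below 0.05 with a fold above 1.5 they became 1 (15.8% of all genes). These limits are those used for the standard diet experiment, and the study made no comparison between diets in its RNA data. The 2 calls between Fc(mML1)B3 groups became 1 with no filter (5271 of 19289 genes), with the block (5110 of 14105 genes) and at the same limits with a fold above 1.5 (12.0% of all genes). With upper quartile scaling they became 3, of which 1 was shared (6007 of 14105 genes), and they were 1 to 2 without 1 mouse. The 3 called pairs became 1 with library totals without TMM (Igf1 with Igfals on the standard diet). The cause was not tested. The study's limits add a fold limit. The subsets of library series hold fewer mice and also differ in series, and these cannot be told apart. Upper quartile scaling lowered the share of higher genes among all called from 54.9% to 44.6% under HFD, from 48.6% to 34.5% between Fc groups and from 53.6% to 36.8% between Fc(mML1)B3 groups. Mouse numbers did not pair the mice. The correlation of same-numbered mice was over 0.1 in 2 of 10 pairs under HFD (-0.66 to 0.32) and in 0 of 7 on the standard diet, and 0 mice correlated best with their own number.

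Of the values of single genes, 332 kept their direction and call, 4 gained a call, 19 lost one and 25 changed sign, and those that changed sign were not called before except Stat5b with the clock covariate under HFD (-0.029). The others under HFD were Igfbp3 (0.53) and Socs2 (0.32) with the clock covariate, Igfbp2 without Fc mice 7 and 8 (0.044), Igfbp3 with mice 5 to 10 only (0.093), and Cish with limma-voom (-0.20) and the block (-0.018). On the standard diet they were Igfbp3 (0.013) and Socs2 (-0.40) with the clock covariate, Socs2 with Fc mice 6 to 9 only (-0.30), and Cish with limma-voom (0.16) and the block (0.076). For the difference between experiments they were Ghr with DESeq2 (-0.0096), limma-voom (-0.063), the 0.5 CPM filter (-0.0085) and no filter (-0.0054), Igfbp3 with the block (-0.014), and Cish with limma-voom (0.34) and the block (0.12). Between Fc groups they were Igfbp1 with limma-voom (0.064) and Igfbp2 with upper quartile scaling (-0.031). Between Fc(mML1)B3 groups they were Igfals with limma-voom (-0.0098), upper quartile scaling (-0.058) and the block (-0.021), and Socs2 with the block (-0.016). Leaving out 1 mouse also changed the sign of uncalled values. The ranges were -0.20 to 0.016 for Igfbp3 under HFD. On the standard diet they were -0.028 to 0.099 for Igfbp2, -0.17 to 0.050 for Igfbp3, -0.15 to 0.29 for Socs2 and -0.40 to 0.14 for Cish. For the difference they were -0.12 to 0.19 for Igfbp3 and -0.041 to 0.069 for Ghr. Between Fc groups they were -0.36 to 0.042 for Igfbp1 and -0.0081 to 0.15 for Igfbp2. Between Fc(mML1)B3 groups they were -0.050 to 0.082 for Igfals, -0.024 to 0.30 for Socs2 and -0.17 to 0.48 for Cish.

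Each mouse gave 1 library at 1 time, so pulses of growth hormone within a mouse were not sampled. Protein and plasma levels were not measured in these files.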
